A study of Mus musculus with 2 samples.

Results

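The miR-297, miR-466, miR-467 and miR-669 families are groups of mouse miRNAs whose hairpins lie for the most part in a single intron of Sfmbt2, and 38 entries of these families were listed among the small RNA of testicular extracellular vesicles (EVs). An entry was taken as a member if it was a known mouse miRNA, of type mature or hairpin in the deposited tables, and if any of its names began with miR-297, miR-466, miR-467 or miR-669 followed by a letter or a hyphen. Entries that list several names were counted once. The members were 38 of the 525 known miRNA entries (7.24%) and of the 27065 entries of all small RNA classes.

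The study sequenced small RNA on the BGISEQ-500 platform in 2 libraries of 1 condition, both made from testicular EVs of adult C57/BL6 mice. Before extraction the EVs received proteinase K and RNase A, which degrade accessible protein and RNA. The paper reports that some miRNAs it tested were not significantly reduced when a detergent that dissolves the membrane was added. Surviving the treatment therefore does not by itself show that a membrane protected a miRNA. The 2 libraries are replicates of 1 group, so no test between groups was made, and untreated EVs and whole testis were not analysed here. Since nothing read here says whether separate animals or separate EV preparations gave the libraries, the spread between them may be technical. Library 1 has 21970654 listed counts and library 2 has 24829208, of which known miRNA hold 689004 and 559053. Levels are in CPM, counts per 1000000 listed counts of a library, followed by the mean ± SD over both libraries. Shares carry exact Clopper-Pearson 95% intervals that cover counting error only, and ratios are library 1 over library 2. Every miRNA of a list of 11 testis and germ cell names was listed, and their entries summed to 5405 and 4065 CPM. The red blood cell miRNAs summed to 652 and 382 CPM, gonadal somatic miR-202 to 414 and 373 CPM, and those of liver, neuron, striated muscle and the miR-290 cluster of embryonic stem cells to between 3.50 and 48.4 CPM in either library.

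A miRNA is cut from a hairpin precursor, either arm of which (5p or 3p) can be loaded into an Argonaute protein, and it finds its targets mainly through its seed, bases 2 to 8 from the 5′ end. Sfmbt2 encodes a Polycomb group protein with MBT domains and is an imprinted gene, expressed from the paternal allele in extraembryonic tissue. Its intron carries a rodent-specific array of miRNA hairpins made by repeated tandem duplication, known for its expression in placenta and in embryonic stem cells and for its need in placental development. Copies in the array differ by few bases, so reads from near-identical hairpins can be split between entries or given to any of them, and the value of each single entry below is uncertain to that extent.

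The mature sequences are shown so that the alternating bases and the seeds can be seen. The RefSeq table for build GRCm38.p6 held a mature sequence for 2 of the 45 names that the members list, miR-466k and miR-467h. It held 6 further mature sequences of the families, whose names were not among the listed entries. Seeds are in capitals.
miR-466k: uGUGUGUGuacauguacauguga
miR-467h: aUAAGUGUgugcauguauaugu
miR-466i-3p: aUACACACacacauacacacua
miR-466j: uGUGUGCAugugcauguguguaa
miR-466q: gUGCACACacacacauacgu
miR-467f: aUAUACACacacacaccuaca
miR-467g: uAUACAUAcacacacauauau
miR-669n: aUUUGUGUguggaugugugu
miR-466k is at chr3:85467396-85467418 (+) and miR-467h at chr9:115381898-115381919 (+), both outside Sfmbt2. No pair of the 8 shares a seed, and no other listed known miRNA with a sequence in the table has the seed of either listed one. A run of 8 alternating U and G (UGUGUGUG or GUGUGUGU) was in 2 of the 8, miR-466k and miR-669n, and in 9 of all 1679 mouse mature miRNAs of the table (0.536%). The matching run of C and A (CACACACA or ACACACAC) was in 4 of the 8 and in 4 of the 1679 (0.238%), so no mature sequence of the table outside these families held it. Among listed known miRNAs outside the families, miR-574-5p and miR-672-5p held the run of U and G. miR-574-5p had 139 and 137 counts in libraries 1 and 2, and miR-672-5p had 240 and 164.

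The hairpins of the same names show where the mature miRNA, in capitals, sits within its precursor.
Mir466k: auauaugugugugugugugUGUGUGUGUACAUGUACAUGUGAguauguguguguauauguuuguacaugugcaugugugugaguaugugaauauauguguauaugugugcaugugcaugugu
Mir467h: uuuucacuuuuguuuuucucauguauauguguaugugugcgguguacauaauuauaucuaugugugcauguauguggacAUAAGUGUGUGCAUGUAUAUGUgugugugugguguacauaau
Mir466k is at chr3:85467377-85467498 (+) and is 122 bases long, with the mature sequence from base 20. Mir467h is at chr9:115381819-115381939 (+) and is 121 bases long, with the mature sequence from base 80, on the side of the 3′ end.

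In GENCODE M21 (GRCm38), Sfmbt2 lies at chr2:10370510-10595253 on the plus strand. The annotation holds 82 hairpins named for the 4 families, of which 72 are within Sfmbt2 and 10 elsewhere. All 72 are on the strand of the gene and span 51.6 kb, from 10466663 to 10518279, inside an intron of 62472 bp (10461473 to 10523944) that is intron 10 or intron 11 of the transcripts with 23 exons. By family, 29 of 30 miR-669 hairpins, 24 of 29 miR-466 hairpins, 14 of 17 miR-467 hairpins and 5 of 6 miR-297 hairpins are in the intron. The label of an intron cluster therefore holds for most members and not for all. For 32 of the 38 entries every annotated hairpin is in the intron, 3 entries (miR-297a-5p, miR-466f-3p and miR-466f) have hairpins both there and on another chromosome, and 3 (miR-466i-5p, miR-467h and miR-466k) have theirs only on chromosomes 13, 9 and 3. The name miR-466a was not matched to a hairpin, and the entry it shares with miR-466e was placed by miR-466e.

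Together the families made up a small part of the known miRNA. The members held 4429 counts in library 1 and 3475 in library 2, or 202 and 140 CPM, with a mean of 171 ± 43.6 CPM (SD, n = 2). Of known miRNA counts they held 0.643% (0.624% to 0.662%) in library 1 and 0.622% (0.601% to 0.643%) in library 2, a mean of 0.632% ± 0.0150. In bulk EV RNA, fewer vesicles with a miRNA and fewer copies per vesicle cannot be told apart. The summed CPM were higher in library 1 by a log2 ratio of 0.53, while the shares of known miRNA had overlapping intervals. Known miRNA as a whole stood at 31360 CPM in library 1 and 22516 CPM in library 2. In both libraries 25 of the 38 members had at least 10 counts and 9 had at least 100, and each had at least 1, since every entry in the tables has at least 1 count in both.

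The miR-669 family was the highest of the 4 in each library. Its 12 entries summed to 106 and 61.3 CPM in libraries 1 and 2, with a mean of 83.6 ± 31.6 CPM. The 8 miR-467 entries summed to 58.1 and 45.8 CPM (52.0 ± 8.66), the 14 miR-466 entries to 32.6 and 29.8 CPM (31.2 ± 2.03) and the 3 miR-297 entries to 4.14 and 2.74 CPM (3.44 ± 0.992). A further entry, shared by miR-669m-5p and miR-466m-5p, belongs to both families and had 17 and 8 counts. The order of the families was the same in both libraries, although the miR-669 sum in library 2 was close to the miR-467 sum in library 1. The miR-669 sums turned on a pair of entries. Without miR-669b-5p the family summed to 64.3 and 59.0 CPM in libraries 1 and 2, and without miR-669f-5p as well to 63.3 and 41.5 CPM. With both left out, miR-669 in library 2 was below the 45.8 CPM of miR-467, so its lead there depends on these entries.

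**Figure D1:**
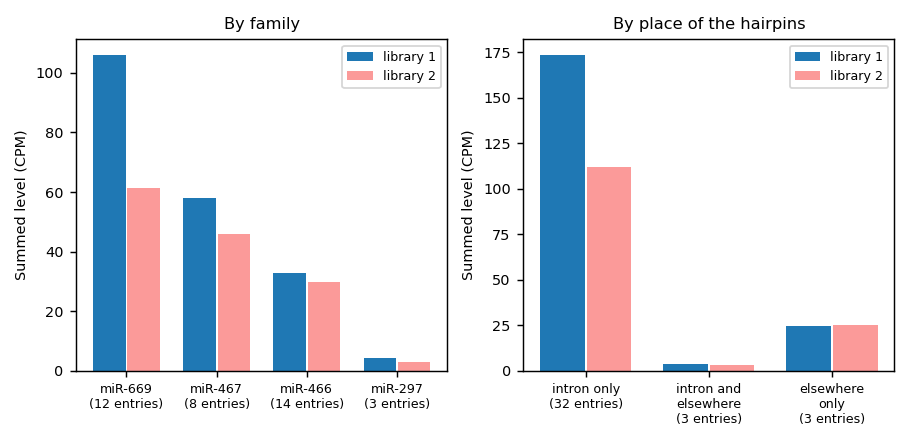
Summed level of the members in CPM, by family (left) and by where their annotated hairpins lie (right), with 1 bar per library and no error bars, and the entry shared by 2 families left out of the left panel. miR-669 leads in both libraries, at 106 and 61.3 CPM, and entries with every hairpin in the Sfmbt2 intron hold 173 and 112 CPM.

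miR-669b-5p had the highest mean of all members and also the least stable value among the abundant ones. Library 1 held 915 counts of it and library 2 held 56 (41.6 and 2.26 CPM, 22.0 ± 27.9), which placed it at rank 101 of the 525 known miRNA entries. Its hairpin Mir669b is at chr2:10467790-10467886. The hairpin Mir669f, at chr2:10467229-10467349, starts 561 bp before it, and miR-669f-5p stood the other way round, at 22 and 435 counts (1.00 and 17.5 CPM, 9.26 ± 11.7). The 2 entries summed to 937 and 491 counts, so the libraries differed less in the sum than in either entry. Neither mature sequence was in the sequence table used here, and how the counting divides reads among close copies was not tested.

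The other high miR-669 entries were steadier. miR-669l-5p had 585 and 385 counts in libraries 1 and 2 (26.6 and 15.5 CPM, 21.1 ± 7.86; chr2:10468971-10469068). miR-669d-5p, which has 2 hairpins in the intron, stood at 13.5 and 10.7 CPM (12.1 ± 2.01), and miR-669o-5p at 13.3 and 10.6 CPM from 292 and 262 counts (11.9 ± 1.94; chr2:10514300-10514395). Each of these 3 was higher in library 1 by less than 2-fold, with log2 ratios of 0.78, 0.34 and 0.33. miR-669c-5p, singled out after its values were seen, had 113 counts in library 1 and 4 in library 2, a ratio of 31.9 with a counting interval of 12.1 to 119, and the largest among the members. Of the others, the shared entry of miR-669a-5p and miR-669p-5p had 49 and 55 counts from names with 14 hairpins, miR-669e-5p had 16 and 10, miR-669k-5p 19 and 6, and miR-669h-5p 4 and 5.

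In the miR-467 family the 5p entry of a single hairpin was the highest. miR-467c-5p had 500 and 418 counts in libraries 1 and 2 (22.8 and 16.8 CPM, 19.8 ± 4.19; chr2:10473931-10474027), and its log2 ratio was 0.43. miR-467h, from chromosome 9, had 236 and 253 counts (10.5 ± 0.390 CPM) and was level between the libraries at a log2 ratio of 0.08. miR-467d-5p had 227 and 151 counts (8.21 ± 3.01 CPM) and miR-467e-5p had 133 and 73 (4.50 ± 2.20 CPM). These 2 neighbours in the intron, at chr2:10507630-10507714 and chr2:10505721-10505807, were both higher in library 1, with log2 ratios of 0.76 and 1.04. miR-467a-5p, whose name has 10 hairpins in the intron, was higher in library 2, with 113 and 179 counts (6.18 ± 1.46 CPM) and a log2 ratio of -0.49. miR-467b-5p had 39 counts in library 1 and 2 in library 2, too few in library 2 to give its ratio with any precision (22.0, with a counting interval of 5.71 to 188).

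In CPM the miR-466 entries had the sum most alike between the libraries of the 4 families, at a log2 ratio of 0.13. This ranking depends on the scale. Per 1000000 known miRNA counts the sums were 1181 ± 199 for miR-466 and 3051 ± 464 for miR-669. For miR-467 and miR-297 they were 1944 ± 130 and 127 ± 7.38. On that scale the SD of miR-466 was the largest of the 4 families relative to its mean. miR-466i-5p, from chr13:17747473-17747593, had 250 and 286 counts in libraries 1 and 2 (11.4 ± 0.0989 CPM) and was the highest. miR-466d-3p had 107 and 130 counts (5.05 ± 0.259 CPM; chr2:10511967-10512062). miR-466k, the chromosome 3 entry whose sequence is shown above, had 50 and 77 counts (2.69 ± 0.584 CPM). Their log2 ratios were -0.02, -0.10 and -0.45, and the counting interval of each ratio included 1, so no direction can be read from them. The remaining miR-466 entries held 1 to 65 counts in either library. miR-466c-5p had 50 and 60 counts, and the entry listing miR-466b-3p, miR-466c-3p and miR-466p-3p had 46 and 51, both close to level. miR-466p-5p with 65 and 25 counts, miR-466g with 52 and 12, the shared entry of miR-466b-5p and miR-466o-5p with 36 and 17, and miR-466n-5p with 19 and 6 were higher in library 1. The shared entry of miR-466a-3p and miR-466e-3p with 17 and 35 counts and miR-466f-3p with 11 and 17 were higher in library 2. miR-466f, listed with no arm, had 11 and 6.

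miR-297 was the lowest family. miR-297a-5p, the highest of its 3 entries, had 61 and 55 counts in libraries 1 and 2 (2.50 ± 0.397 CPM), from a name with 3 hairpins in the intron and Mir297-1 on chromosome 7. miR-297c-5p had 23 and 1 counts, and miR-297b-5p had 7 and 12. The lowest members of all were miR-466h-3p with 1 and 13 counts, miR-669h-5p with 4 and 5, and miR-466e-5p with 2 and 4. At such counts the ratio of the libraries has an interval that runs over more than a 10-fold range.

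**Figure D2:**
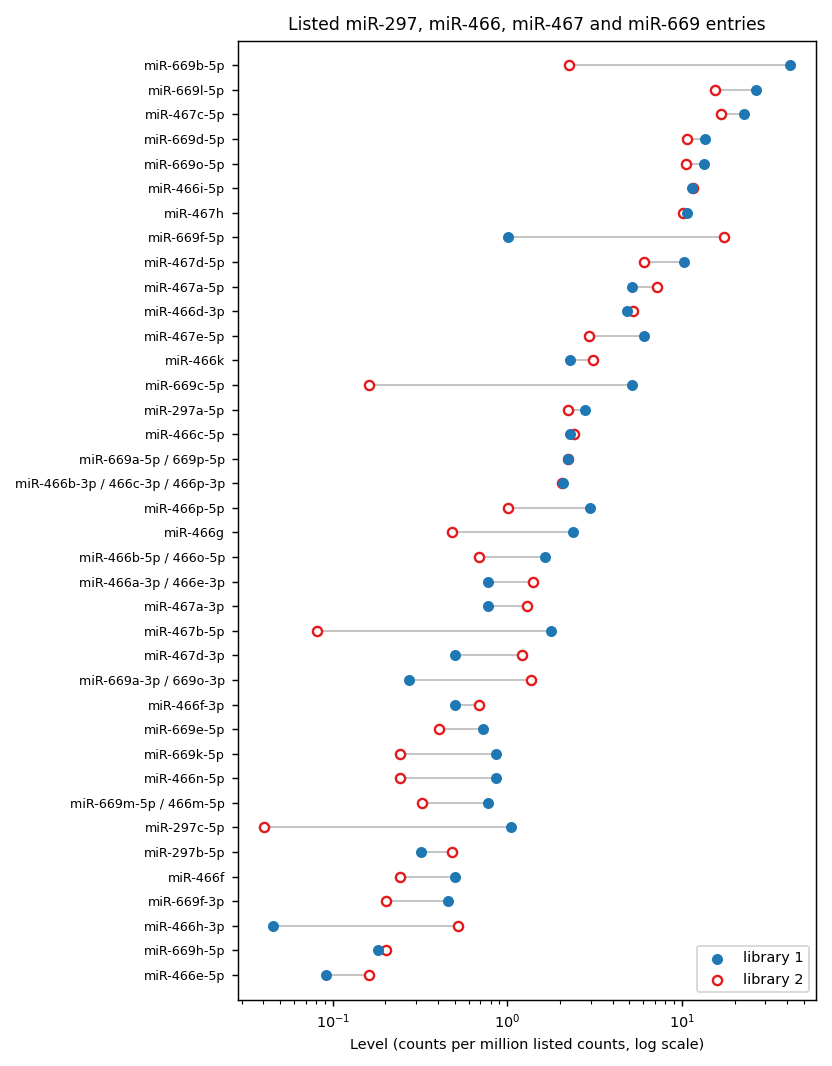
Level of each of the 38 members in library 1 (filled) and library 2 (open), in CPM on a log scale, ordered by mean level, with a line joining the 2 values. Most of the highest members lie close together in the 2 libraries, while miR-669b-5p (41.6 and 2.26 CPM) and miR-669f-5p (1.00 and 17.5 CPM) lie far apart in opposite directions.

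Most of the reads came from the 5p side of the hairpins. The 25 entries named 5p held 3854 counts in library 1 and 2780 in library 2, or 87.0% (86.0% to 88.0%) and 80.0% (78.6% to 81.3%) of the member counts. The 9 entries named 3p held 226 and 347 counts, or 5.10% (4.47% to 5.79%) and 9.99%, a mean of 7.54% ± 3.45. The other 4 entries name no arm. Counted over entries that name an arm, 3p entries held 5.54% and 11.1% of the member counts, against 22.5% and 22.4% of the counts of the other 487 known miRNA entries. As a whole the members were lower than the other known miRNA in both libraries, and the families differed in this. The 3p share in libraries 1 and 2 was 0.687% and 2.56% for miR-669 and 2.69% and 7.01% for miR-467. For miR-466 it was 30.1% and 38.2%, above that of the other known miRNA. These shares leave out miR-467h, which names no arm. Its mature sequence lies on the side of the 3′ end, and it held 236 and 253 counts in libraries 1 and 2. The 3p entries of miR-467 held 28 and 62, so the low 3p share of that family depends on leaving miR-467h out. Leaving out miR-669b-5p moved the 3p share of member counts to 6.43% in library 1 and 10.1% in library 2.

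Both arms were listed for 9 names, of which 6 had more 5p than 3p counts in both libraries, and miR-467d and miR-669f alone have 1 hairpin and no shared entry. miR-467d-5p had 227 and 151 counts against 11 and 30 for miR-467d-3p, a 5p to 3p ratio of 20.6 in library 1 and 5.03 in library 2. For miR-467a the ratio was 6.65 and 5.59, from 113 and 179 counts against 17 and 32. For miR-669f the ratio depended on the library, with 22 and 435 counts of 5p against 10 and 5 of 3p. For miR-669o the 3p entry is shared with miR-669a-3p and had 6 and 34 counts, against 292 and 262 for its 5p. The miR-466 family was more even. miR-466c-5p had 50 and 60 counts beside 46 and 51 for the 3p entry it shares with miR-466b and miR-466p, and miR-466e-5p, with 2 and 4 counts, stood below its shared 3p entry with 17 and 35. Against the same shared 3p entry of 46 and 51 counts, the 5p entry of miR-466b had 36 and 17, lower in both libraries, and that of miR-466p had 65 and 25, lower in library 2 alone. By family, 3p entries held 182 and 246 counts of miR-466, 28 and 62 of miR-467 and 16 and 39 of miR-669, and all 3 sums were higher in library 2.

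The tables divide known miRNA entries into type mature and type hairpin, and the sources used here do not say how. Of the members 19 are of each type. Type hairpin held 53.0% (51.5% to 54.4%) of the member counts in library 1 and 54.9% (53.2% to 56.6%) in library 2, against 46.1% and 44.6% of the counts of the other known miRNA. Entries of type hairpin include miR-669b-5p, miR-669f-5p and the 3 members with hairpins only outside Sfmbt2.

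The names with the most copies in the intron were not the highest by mean level. Of the 43 names with a letter that the annotation gives to the 82 hairpins, 34 were listed and 9 were not (miR-466j, miR-466l, miR-466q, miR-467f, miR-467g, miR-669g, miR-669i, miR-669j and miR-669n). miR-669a has 12 hairpins, miR-467a has 10 and miR-466b has 8, and their entries, shared ones included, summed to 55 and 89, 130 and 211, and 82 and 68 counts in libraries 1 and 2. The single hairpins of miR-669l and miR-467c each had more than any of these in either library, at 585 and 385 counts and 500 and 418. The single hairpin of miR-669b had more in library 1 alone, with 915 counts, while its 56 counts in library 2 were below all 3. The longest gap between hairpins that have an entry with 1 name and 1 intron hairpin is a stretch of 24.5 kb in the middle of the array. It holds 27 hairpins of 5 names (miR-466b, miR-466c, miR-467a, miR-669a and miR-669p). Every one of those names has more than 1 copy, which follows in large part from how the stretch was chosen. Copies of miR-466b, miR-467a and miR-669a also lie outside it, as do all intron copies of miR-297a, miR-466f, miR-669d and miR-669m. The 22 entries with 1 name and 1 intron hairpin lie on both sides of it, 9 upstream with 95.9 and 53.2 CPM in libraries 1 and 2, and 13 downstream with 48.0 and 29.2 CPM. The levels are those of names, and the counts of a name with several hairpins cannot be told apart by hairpin.

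**Figure D3:**
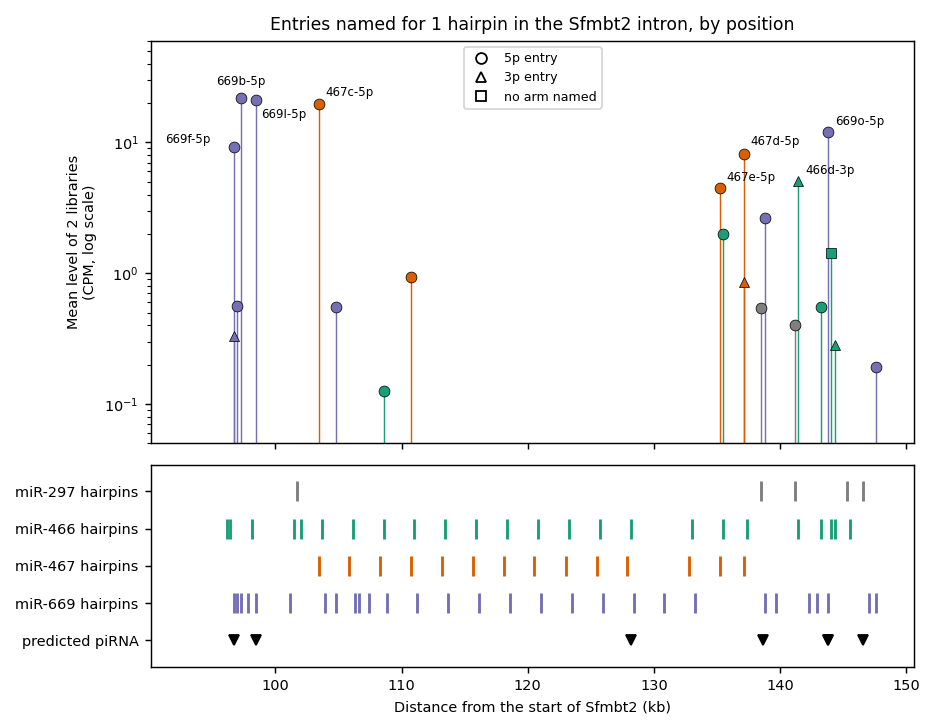
Top, mean CPM of the 2 libraries on a log scale for the 22 entries with 1 name and 1 hairpin in the intron, at their distance in kb from the start of Sfmbt2, coloured by family as in the rows beneath and with symbols for the arm. Bottom, the 72 hairpins in the intron by family and the 7 predicted piRNAs, of which 2 share an interval. The upstream end holds miR-669f, miR-669b, miR-669l and miR-467c. The middle stretch of 24.5 kb was chosen as the longest gap between the hairpins of these entries. It holds only hairpins of names with more than 1 copy.

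Entries with every hairpin in the intron held 3810 counts in library 1 and 2781 in library 2 (173 and 112 CPM, 143 ± 43.4), or 86.0% (85.0% to 87.0%) and 80.0% (78.7% to 81.3%) of the member counts. The 3 entries from other chromosomes alone held 536 and 616 counts (24.4 and 24.8 CPM, 24.6 ± 0.292), or 12.1% and 17.7%, and were near level between the libraries. The 3 entries with hairpins in both places held 83 and 78 counts. The log2 ratio of the intron sum was 0.63, against -0.02 for the 3 entries from elsewhere. The gap was not shared by the intron entries as a whole, since 12 of the 32 were higher in library 2. The 5 highest members, ranked by these same values and all from the intron, summed to 118 and 55.8 CPM in libraries 1 and 2. The other 33 summed to 83.7 and 84.1 CPM. Among them are the 3 entries from elsewhere and miR-669f-5p, which was far higher in library 2 (1.00 and 17.5 CPM). The even sum of the 33 therefore does not place the gap in the 5 highest alone. Known miRNA as a whole was also higher in library 1, at 31360 and 22516 CPM. Part of the gap was miR-669b-5p: without that entry the 37 remaining members summed to 160 and 138 CPM. Without both miR-669b-5p and miR-669f-5p the other 36 summed to 159 and 120 CPM, a log2 ratio of 0.40. These 36 held 0.508% and 0.534% of known miRNA counts.

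Single members differed between the replicate libraries about as often as other miRNAs of the same level. Of the 32 members with a mean count of at least 10, 14 were over 2-fold apart in CPM (43.8%), and the background over all 433 such known miRNA entries was 35.1%. Of the 32 members, 11 were over 2-fold higher in library 1, beside a background of 28.6% of known miRNA, and 3 were over 2-fold higher in library 2, beside 6.47%. Over all 23876 entries of every class with that mean count, 33.7% were over 2-fold apart. Among the other known miRNA whose mean count was no higher than that of the highest member, 127 of 300 were over 2-fold apart (42.3%), a share close to that of the members. The median log2 ratio was 0.34 over the 32 members (quartiles -0.19 and 1.34) and 0.46 over the other 401 known miRNA entries, while over all entries it was -0.20. With TMM scaling these medians moved together, to 0.54 for the members, 0.65 for all known miRNA and 0.00 for all entries. Scaled to known miRNA counts, the median of the members was -0.14, so the sign of the median depends on what they are scaled to. The sum of the members was higher in library 1 by log2 ratios of 0.53 in CPM and 0.72 with TMM. Scaled to known miRNA counts the sum was near level, at 0.05. Counting error alone did not cover the difference of 20 of the 38 members (52.6%) and of 307 of the 487 other known miRNA entries (63.0%).

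**Figure D4:**
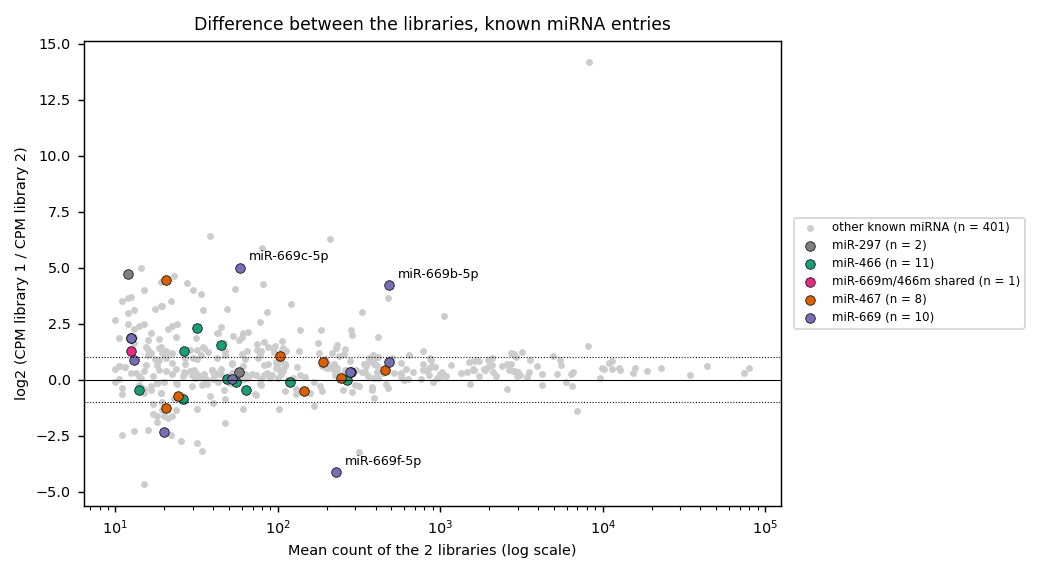
Log2 ratio of CPM, library 1 over library 2, against the mean count on a log scale, for 32 members (coloured by family) and 401 other known miRNA entries (grey) with a mean count of at least 10; dotted lines mark 2-fold. miR-669b-5p (4.21) and miR-669f-5p (-4.13) stand far out in opposite directions, miR-669c-5p lies above both, and 14 of the 32 lie beyond the dotted lines.

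By summed level the families were low beside 2 other miRNA clusters. The imprinted Dlk1-Dio3 locus, a large miRNA cluster expressed from the maternal chromosome, was listed with 37 entries for 30 of 50 names and held 543 and 395 CPM in libraries 1 and 2, or 1.74% ± 0.0151 of known miRNA counts. The X-linked testis cluster, known for its expression in male germ cells, had 29 entries for all 17 names and 5970 and 4282 CPM, a share of known miRNA between 18.9% and 19.1% by the intervals of both libraries. The members, at 202 and 140 CPM, were below both in each library, and each gap was larger than the SDs of the 2 sums compared. The median member had a mean CPM of 1.70, against 2.28 over the other known miRNA entries, 0.805 in the Dlk1-Dio3 locus and 14.2 in the X-linked cluster. By the median entry the families lay between the 2 clusters. Of armed counts, 3p entries held 64.3% and 67.2% in the Dlk1-Dio3 locus and 18.5% and 20.1% in the X-linked cluster, both above the 5.54% and 11.1% of the members. Both the sums and the 3p shares of the 2 clusters rest largely on their highest entry. It held a mean of 61.1% of the counts in the Dlk1-Dio3 locus and 67.4% in the X-linked cluster, against 16.6% among the members.

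Other small RNA entries have deposited positions in the same gene. The authors predicted piRNAs, the small RNAs that bind PIWI proteins and repress transposons in germ cells, and 7 predicted piRNA entries lie within Sfmbt2, each overlapping a hairpin of the families. All 7 are assigned to ERVK repeats, long terminal repeat elements of the endogenous retroviruses. They summed to 25.4 CPM in library 1 and 18.8 CPM in library 2 (22.1 ± 4.66). For 3 of them the strand is that of Sfmbt2 and its miRNAs, and for 4 it is the opposite. The highest, novel_pir38201, had 283 and 216 counts on the strand opposite to Mir669o, over an interval of 91 bp of which 83 bp overlap the hairpin. On the sense strand, novel_pir38917 had 46 and 62 counts over Mir669f, novel_pir38757 had 53 and 40 over Mir669c, and novel_pir39512 had 23 and 18 over Mir669l. Among all 6587 predicted piRNA entries with an interval, 21 overlapped any annotated miRNA gene (0.319%), and these 7 are among the 21. Reads on the sense strand of a hairpin cannot be told apart from its miRNA by position alone. Whether reads of the 7 entries also match other copies of these repeats was not tested, so their CPM need not come from Sfmbt2. The build of the deposited positions is not named in what was read here. When the positions were compared with GENCODE M21, 9 of 168 predicted miRNAs overlapped an annotated small RNA gene on its strand, against 1 and 0 after shifts of 1000 bp in either direction.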

How the data were processed

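Small RNA of testicular EVs was measured in 2 libraries of 1 condition. Per the study's methods, reads were cleaned, mapped with Bowtie2 and cmsearch, and classified by a priority of databases in which miRBase is first. Further miRNAs were predicted with miRDeep2 and piRNAs with Piano. The tools carry no version there, and no build of the genome is named. The authors deposited a whole-number count per entry and library with no normalization, and a TPM value. The deposited TPM values are tags per 1000000 (RPM) of a larger total, about 23442100 tags in library 1 and 26169100 in library 2, with no correction for length.

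CPM were computed over the listed counts, with exact Clopper-Pearson 95% intervals from SciPy 1.17.1 (pandas 2.3.3, NumPy 2.4.6, matplotlib 3.10.9). Listed totals of 21970654 and 24829208 counts put 3 counts, the limit that a count of 0 allows, at 0.137 and 0.121 CPM. PCR copies are not independent molecules. The 2-fold count was restricted to mean counts of 10 or more. No outcome of its trial on simulated data is given here, so its error rate near that minimum is not known. Differences of 1 library against 1 carry no p-value. Hairpins came from GENCODE M21 and sequences from RefSeq, where 2 of 45 names matched.

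The members and lists were chosen with earlier results of these data known. Named were the 12 members of highest mean CPM, the highest of each family and arm, the 5 furthest apart among mean counts of 100 or more, the 3 entries with most names, the 3 of lowest mean count, and both arms of the 5 highest hairpins that list both. No Rfam precursor family, of 90 listed, is named for these families. All other members are also named, after their values were seen. Alternatives were TMM (edgeR 4.0.16), DESeq2 1.42.0 size factors in R 4.3.3, deposited TPM, scaling to known miRNA counts, type mature only, multi-name entries left out, other count minimums and denominators, and each library left out.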

Additional observations from a re-analysis of the deposited data

Results flagged for a closer look

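Predicted entries inside Sfmbt2 were outside the comparisons of the families and lay above the 3 counts that a count of 0 allows, with no control libraries to set beside them. Opposite to the miRNA strand were novel_pir38201, with a mean of 10.8 CPM, and novel_pir38199, with 4.03 CPM, both over Mir669o, as well as novel_pir38369 over Mir466b-2 with 1.05 CPM and novel_pir38529 over Mir297a-4 with 1.04 CPM. On the miRNA strand were novel_pir38917 over Mir669f with 2.30 CPM, novel_pir38757 over Mir669c with 2.01 CPM and novel_pir39512 over Mir669l with 0.886 CPM. The predicted miRNA novel_mir657, also on the opposite strand, had 18 and 15 counts in libraries 1 and 2, a mean of 0.712 CPM, and lies 75066 bp before the first hairpin of the families.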

How the results depend on the processing

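No paired analysis was possible because both libraries belong to 1 condition and no groups were compared. Leaving out 1 library in turn gave 140 to 202 CPM for the members, 0.622% to 0.643% of known miRNA counts, 28 to 33 members with at least 10 counts, 5.10% to 9.99% of member counts on 3p entries and 39.9% to 58.5% in the 5 highest members, and 61.3 to 106 CPM for miR-669, 45.8 to 58.1 for miR-467, 29.8 to 32.6 for miR-466 and 2.74 to 4.14 for miR-297. With type mature alone the members fell to 79.0 CPM and 0.534% of known miRNA counts, 10 had at least 10 counts in both libraries, 7 were over 2-fold apart, the median log2 ratio was 0.78, the 5 highest held 85.5%, and miR-466, miR-467 and miR-669 summed to 8.24, 20.7 and 49.5 CPM. Without entries of several names miR-466 summed to 26.9 CPM. The median log2 ratio was 0.54 with TMM and 0.54 with DESeq2 size factors. Per 1000000 known miRNA counts it was -0.14, the members summed to 6322, and miR-297, miR-466, miR-467 and miR-669 to 127, 1181, 1944 and 3051. A minimum of 1 count held 38 members and of 100 counts 9. Over all miRNA counts the share was 0.399%. After the data were seen, leaving out miR-669b-5p gave 0.561%, leaving out miR-669f-5p as well 0.521%, and leaving out entries from outside Sfmbt2 0.539%, with miR-466 at 17.1 and miR-467 at 41.5 CPM.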
